A study of Rattus norvegicus with 12 samples.

Results

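Iron enters a cell bound to transferrin through the transferrin receptor, or as the free metal through transporters of the cell surface and endosome. It is held in ferritin, a shell built of heavy and light chains, and leaves through ferroportin. Iron regulatory proteins bind the messages of several of these genes and tie their stability or translation to the iron level, and inflammatory cytokines change iron handling in many tissues. β-cells need iron for respiration and are sensitive to the radicals that free iron forms. The genes described here are 7 of the 34034 gene symbols in the count table, taken by name: the importers Slc11a2, Tfrc and Slc39a14, the exporter Slc40a1, the ferritin chains Fth1 and Ftl1, and Lcn2, which encodes lipocalin-2, a secreted protein that binds iron-carrying siderophores. All 7 were among the 14324 genes tested, and Lcn2 reached the level needed for testing only through the libraries that received the strong cytokine challenge. The other 6 genes stood above 1 CPM (counts scaled to library size) in every library.

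INS-1E, a wild-type rat insulinoma line that makes insulin and is used as a β-cell model, was sequenced as polyA RNA in 4 groups of 3 libraries, so every value describes 1 cell line. All cells grew in RPMI medium with 11 mM glucose and serum. The groups were untreated cells, cells kept for 72 h in IL-1β at 10 pg/ml (IL-1βlow), cells exposed for 16 h to IFN-γ at 5 ng/ml together with IL-1β at 100 pg/ml (CYT), and cells that received the weak exposure, then fresh medium and the strong one (IL-1βlow + CYT). The comparisons ask what weak preconditioning does alone, what the challenge does, and whether the challenge acts otherwise in preconditioned cells; they share libraries and are not independent of each other.

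Libraries held between 15812640 and 20246806 counts. The 10 β-cell markers examined were above 1 CPM in every group, and their summed level ran from 33367 to 39696 CPM in untreated, 29166 to 34132 in IL-1βlow, 10788 to 11074 in CYT and 15866 to 20416 in IL-1βlow + CYT libraries. Ins1 and Ins2 made up most of this sum (means of 23994 and 8097 CPM in untreated cells), and not every marker followed it. In IL-1βlow + CYT cells Slc2a2 held 596 and Neurod1 181 CPM, against 434 and 167 CPM in untreated cells. Pdx1 (263 against 266 CPM) and Iapp (2595 against 2832 CPM) differed less. Ins1, Ins2, Nkx6-1, Mafa, Nkx2-2 and Isl1 were lower there than in untreated cells. Of the alpha cell markers Gcg alone stood above 1 CPM. In bulk RNA, fewer cells of a kind and less RNA per cell cannot be told apart. Levels are given as CPM after TMM scaling, as mean ± SD over the 3 libraries, and are not divided by gene length, so they are compared between groups and never between genes. A gene passed with an adjusted p under 0.01 (edgeR's quasi-likelihood test, Benjamini-Hochberg over all genes tested) and an absolute log2 fold change above 1, or above 0.6 for IL-1βlow against untreated cells.

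Promoter sequences are shown for Lcn2 and Slc11a2, because these genes rose in CYT cells and in IL-1βlow + CYT cells alike. They are the 250 bases before the start in the RefSeq annotation of the rat assembly GRCr8, both on the minus strand, at chr3:36081781-36082030 for Lcn2 and at chr7:133417789-133418038 for the first of 2 starts of Slc11a2. Capitals mark a match to the κB consensus, the motif bound by NF-κB.
Lcn2: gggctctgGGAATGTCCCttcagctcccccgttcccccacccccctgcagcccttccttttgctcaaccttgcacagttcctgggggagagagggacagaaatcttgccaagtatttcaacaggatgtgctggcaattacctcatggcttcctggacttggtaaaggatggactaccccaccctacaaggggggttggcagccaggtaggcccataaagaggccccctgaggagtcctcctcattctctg
Slc11a2: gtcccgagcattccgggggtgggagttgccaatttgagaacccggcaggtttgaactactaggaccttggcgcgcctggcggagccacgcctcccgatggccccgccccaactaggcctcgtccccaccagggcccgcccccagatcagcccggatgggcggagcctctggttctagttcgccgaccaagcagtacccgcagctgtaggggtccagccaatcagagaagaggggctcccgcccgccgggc
Windows of 300 bases, 250 before and 50 after a start, were found for 4 of the 7 genes (Slc11a2, Tfrc, Slc40a1 and Lcn2), 5 windows in all. Both strands of each were searched for the κB consensus, for the STAT motif TTCNNNGAA, for the antioxidant response motif TGACNNNGC and for CAGTGN, the loop of the iron-responsive element. The κB consensus was found in 1 of the 5 windows, that of Lcn2, on the strand opposite to the gene, from base -242 to -233 before the start. It was found in 7.51% of all 33469 windows. The others had a match in 0 of the 5 windows and in 8.87%, 12.1% and 56.6% of all windows, respectively. A match is a run of letters only, and no binding was measured. The iron-responsive element is part of the message, and the windows hold at most 50 transcribed bases after a start. The search for CAGTGN therefore cannot show whether the messages of these genes carry the element.

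Slc11a2 encodes DMT1, the transporter that carries ferrous iron across the plasma and endosomal membranes. It was level in untreated libraries (104, 104 and 102 CPM) and in IL-1βlow libraries (97.9, 96.1 and 96.9 CPM). CYT libraries held 349.6, 389 and 375 CPM, and IL-1βlow + CYT libraries held 205, 225 and 205 CPM. No 2 of the 4 groups overlapped, although the difference between untreated and IL-1βlow cells did not pass (-0.09, SE 0.072, adjusted p = 0.55). The challenge raised Slc11a2 3.58-fold (log2 fold change 1.84, SE 0.073, adjusted p = 8.6e-11). In preconditioned cells the same challenge raised it 2.18-fold over IL-1βlow cells (log2 fold change 1.12, SE 0.072, adjusted p = 5.2e-08). It stood 2.04-fold above untreated cells there (log2 fold change 1.03, SE 0.072, adjusted p = 7.9e-08). That call fell below the fold minimum without IL-1βlow + CYT replicate 2, at a log2 fold change of 0.98. The preconditioned challenged cells held 0.57 times the level of CYT cells, a log2 difference of -0.81 (SE 0.071, adjusted p = 7e-07) that did not reach the fold minimum. The preconditioned challenge response was smaller by 0.72 on the log2 scale, also short of the minimum (interaction -0.72, SE 0.10, adjusted p = 0.00012). Slc11a2 overlaps 1 long noncoding gene in the GRCr8 annotation, and reads were counted per gene, so the transcripts from its 2 starts are summed.

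**Figure D1:**
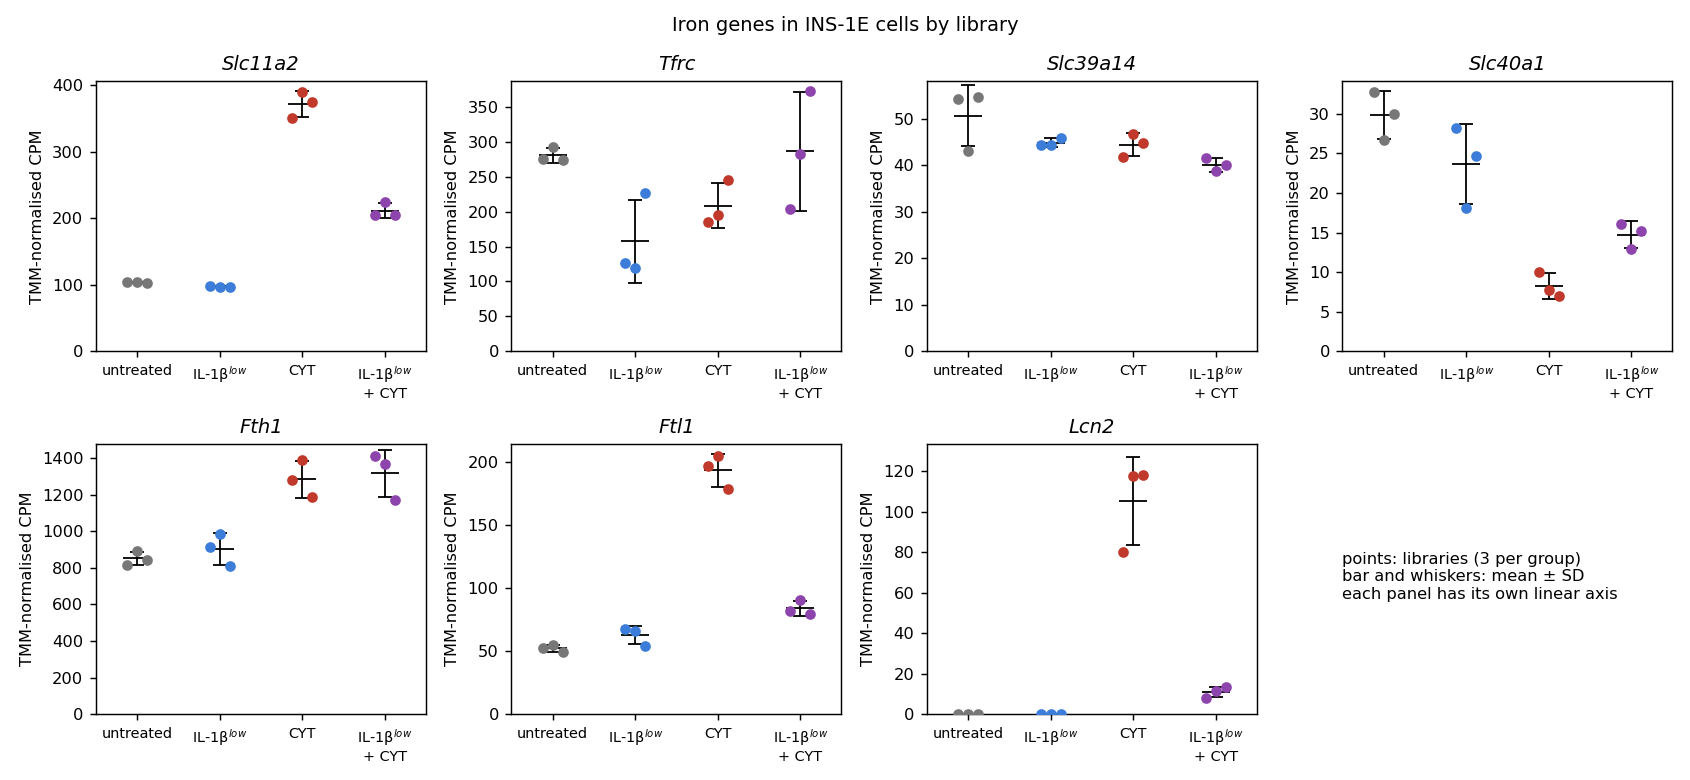
TMM-normalised CPM of the 7 iron genes in each of the 12 libraries (points), by group, with the group mean and SD (bar and whiskers) on a linear axis of its own for each gene. Slc11a2, Ftl1 and Lcn2 were highest and Slc40a1 lowest in all 3 CYT libraries, whereas Tfrc spread widely within the groups that received IL-1βlow.

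Tfrc encodes transferrin receptor 1, the main entry for transferrin-bound iron. Among the 7 genes it had the largest coefficient of variation in the IL-1βlow (37.9%) and the IL-1βlow + CYT groups (29.6%), but not in CYT (15.6%) or untreated cells (3.70%). Untreated libraries held 275, 292 and 274 CPM. IL-1βlow libraries held 127, 119 and 226 CPM. CYT libraries held 184, 195 and 245 CPM, and IL-1βlow + CYT libraries held 203, 281 and 373 CPM. The untreated libraries lay above all IL-1βlow and CYT libraries, while they overlapped with the preconditioned challenged ones. Replicate 3 was the highest library in each of the IL-1βlow, CYT and IL-1βlow + CYT groups. Against untreated cells the log2 difference was -0.84 in IL-1βlow cells (SE 0.23, adjusted p = 0.1), -0.43 in CYT cells (SE 0.23, adjusted p = 0.11) and 0.03 in IL-1βlow + CYT cells (95% interval -0.49 to 0.55), and none of them passed. Without IL-1βlow replicate 3 the first reached -1.19 (adjusted p = 0.0075) and passed. From IL-1βlow to IL-1βlow + CYT cells Tfrc differed by 0.86 (SE 0.23, adjusted p = 0.021), which passed only without IL-1βlow replicate 3 (1.22) or without IL-1βlow + CYT replicate 1 (1.05). From CYT to IL-1βlow + CYT cells it differed by 0.46 (SE 0.23, adjusted p = 0.11). The response to the challenge was higher in preconditioned than in other cells by 1.29 on the log2 scale (interaction, SE 0.32, adjusted p = 0.0065), which passed. This call was lost on leaving out any untreated library, IL-1βlow replicate 1 or 2, CYT replicate 1 or 2, or IL-1βlow + CYT replicate 2 or 3, with interactions of 1.06 to 1.31 and adjusted p of 0.011 to 0.026.

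Slc39a14 encodes ZIP14, which imports zinc and iron that is not bound to transferrin. Its levels were 50.6 ± 6.49 CPM in untreated, 44.9 ± 0.899 in IL-1βlow, 44.4 ± 2.44 in CYT and 40.0 ± 1.41 in IL-1βlow + CYT cells (SD, n = 3 each), and it passed in no comparison. The order ran from untreated to IL-1βlow, CYT and IL-1βlow + CYT cells, and IL-1βlow was not tested against CYT. The CYT libraries (41.8 to 46.7 CPM) and the IL-1βlow + CYT libraries (38.6 to 41.5 CPM) did not overlap, and their difference of -0.15 did not pass (SE 0.098, adjusted p = 0.22). The lowest adjusted p was that of IL-1βlow + CYT against untreated cells (log2 fold change -0.34, 95% interval -0.56 to -0.11, adjusted p = 0.022). After CYT alone the log2 difference was -0.19, with a 95% interval of -0.41 to 0.03.

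Slc40a1 encodes ferroportin, the cellular iron exporter, and it moved opposite to Slc11a2. Untreated libraries held 32.7, 26.7 and 30.0 CPM. IL-1βlow libraries held 28.2, 18.2 and 24.6 CPM, CYT libraries 10.1, 7.69 and 7.0 CPM, and IL-1βlow + CYT libraries 16.1, 12.9 and 15.2 CPM. The untreated and IL-1βlow groups overlapped, and the CYT and IL-1βlow + CYT groups were apart from them and from each other. The challenge lowered Slc40a1 to 0.277 times the untreated level (log2 fold change -1.85, SE 0.18, adjusted p = 6e-07). Against untreated cells, preconditioned challenged cells held 0.494 times as much (log2 fold change -1.02, SE 0.17, adjusted p = 0.00047). That value lay close to the fold minimum, and it did not pass without untreated replicate 1 (-0.97), without IL-1βlow + CYT replicate 2 (-0.93) or with no filter on low counts (-0.98). Between IL-1βlow and IL-1βlow + CYT cells the log2 difference was -0.69 (SE 0.17, adjusted p = 0.014), which did not pass. Preconditioned challenged cells held 1.78 times the level of CYT cells (log2 difference 0.83, SE 0.18, adjusted p = 0.0014), short of the fold minimum. The interaction passed at 1.17 (SE 0.24, adjusted p = 0.0021), so the response to the challenge was less negative after preconditioning, but without IL-1βlow replicate 2 the interaction was 0.98 and did not pass. In IL-1βlow against untreated cells the difference of -0.33 (SE 0.17, adjusted p = 0.39) did not pass. In GRCr8 Slc40a1 overlaps 3 protein-coding genes (Plp2l1, Asnsd1 and Asdurf), and the strand setting of the counting is not stated in the sources used here, so reads shared with them cannot be told apart.

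Within a library, the number of Slc11a2 reads per Slc40a1 read sets an importer against the exporter and does not depend on the scaling. It is not corrected for length, so only its differences between groups carry meaning. The ratio was 3.50 ± 0.363 in untreated, 4.23 ± 0.944 in IL-1βlow, 46.3 ± 10.1 in CYT and 14.5 ± 2.55 in IL-1βlow + CYT libraries. All CYT libraries, from 34.8 to 53.5, lay above all IL-1βlow + CYT libraries, from 12.7 to 17.5, and these lay above every library without the challenge. In an exact two-sided permutation test, CYT against untreated, IL-1βlow + CYT against CYT, IL-1βlow + CYT against untreated and IL-1βlow + CYT against IL-1βlow each gave p = 0.1, the smallest that 3 libraries against 3 allow (adjusted p = 0.143 over 10 comparisons of ratios). IL-1βlow and untreated libraries overlapped (exact permutation p = 0.2, adjusted p = 0.222).

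**Figure D2:**
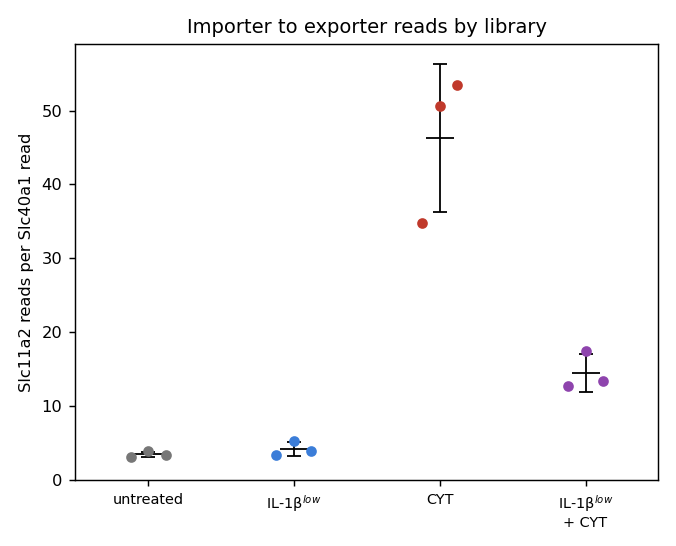
Slc11a2 reads per Slc40a1 read in each of the 12 libraries (points), by group, with the group mean and SD (bar and whiskers) on a linear axis. The CYT libraries held 34.8 to 53.5, the IL-1βlow + CYT libraries 12.7 to 17.5 and the others less.

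Fth1 encodes the ferritin heavy chain, which oxidises the iron taken into the shell. It held 818, 892 and 843 CPM in untreated, 913, 983 and 810.3 CPM in IL-1βlow, 1281, 1388 and 1186 CPM in CYT, and 1412, 1369 and 1172 CPM in IL-1βlow + CYT libraries. Every challenged library lay above every library without the challenge, and the challenged groups overlapped each other. Against untreated cells the log2 difference was 0.59 in CYT cells (SE 0.099, adjusted p = 0.00013) and 0.63 in IL-1βlow + CYT cells (SE 0.099, adjusted p = 0.00028), both short of the fold minimum. Against IL-1βlow cells, preconditioned challenged cells held 0.55 more on the log2 scale (SE 0.099, adjusted p = 0.0014), also short of it. The 2 challenged groups differed by 0.04, with a 95% interval of -0.19 to 0.26. The interaction was -0.05, with a 95% interval of -0.37 to 0.27, and IL-1βlow alone differed from untreated cells by 0.08 (95% interval -0.14 to 0.31).

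Ftl1 encodes the ferritin light chain, which promotes the deposition of iron in the core. Untreated libraries held 52.4, 54.8 and 49.2 CPM, and IL-1βlow libraries 67.2, 66.2 and 54.2 CPM. The CYT libraries reached 196, 204 and 179 CPM, whereas the IL-1βlow + CYT libraries held 81.6, 90.8 and 79.0 CPM. Only the untreated and IL-1βlow groups overlapped. The challenge raised Ftl1 3.70-fold (log2 fold change 1.89, SE 0.099, adjusted p = 1.2e-09). In preconditioned challenged cells it fell to 0.434 times the CYT level (log2 fold change -1.20, SE 0.096, adjusted p = 3.3e-07). There it stood 0.69 above untreated cells (SE 0.098, adjusted p = 0.00011) and 0.42 above IL-1βlow cells (SE 0.097, adjusted p = 0.0081) on the log2 scale, both short of the fold minimum. In IL-1βlow cells it differed from untreated cells by 0.26 (SE 0.098, adjusted p = 0.26). The interaction was -1.47 (SE 0.14, adjusted p = 5e-06).

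The rat genome holds many near-identical copies of the light chain gene, and reads shared between them can be split or misplaced by the counting. Rows whose RefSeq symbol begins with Ftl1, or that RefSeq lists with Ftl1 as a synonym, were searched for among the gene symbols. The search found 6, Ftl1 included. LOC120102993, which had a Pearson r of 0.998 with Ftl1 over the libraries, was not among them, and whether it is a copy was not tested. Ftl1 held 15.0% of their reads over all libraries, LOC100360087 held 58.2%, LOC100359668 (Ftl1l2) 23.3%, Ftl1l1 2.64% and LOC365803 (the pseudogene Ftl1l4) 0.825%, and LOC103693842 (Ftl1l3) had 0 counts. The share of Ftl1 was 15.5% ± 0.636 in untreated, 15.3% ± 0.156 in IL-1βlow, 14.7% ± 0.382 in CYT and 15.4% ± 0.288 in IL-1βlow + CYT libraries. Each of the other 4 rows with counts passed in CYT against untreated cells, by log2 fold changes of 1.97 (LOC100359668) to 2.16 (LOC365803), and in IL-1βlow + CYT against CYT cells, by -1.28 (LOC100359668) to -1.37 (Ftl1l1). Summed, the rows held 336 ± 12.4 CPM in untreated, 410 ± 44.9 in IL-1βlow, 1318 ± 122 in CYT and 545 ± 50.5 in IL-1βlow + CYT cells. With the rows summed in a fit chosen after the data were seen, the log2 fold change was 1.97 in CYT against untreated cells (SE 0.10, adjusted p = 1.4e-09), -1.28 in IL-1βlow + CYT against CYT cells (SE 0.10, adjusted p = 3.4e-07) and -1.56 for the interaction (SE 0.14, adjusted p = 4.5e-06).

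The heavy chain, taken from the Fth1 row alone, was then set against the light chain within each library, as a ratio of reads without correction for length. Fth1 reads per light chain read, with the 6 rows summed, numbered 2.53 ± 0.160 in untreated, 2.21 ± 0.122 in IL-1βlow, 0.976 ± 0.0285 in CYT and 2.43 ± 0.236 in IL-1βlow + CYT libraries. The CYT libraries, from 0.946 to 1.00, lay below all others. Exact two-sided permutation tests gave p = 0.1 for CYT against untreated, for IL-1βlow + CYT against CYT and for IL-1βlow against untreated libraries, again the smallest possible (adjusted p = 0.143 over the 10 comparisons of ratios). IL-1βlow + CYT libraries overlapped with untreated ones (exact permutation p = 0.7, adjusted p = 0.7) and with IL-1βlow ones (exact permutation p = 0.2, adjusted p = 0.222).

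**Figure D3:**
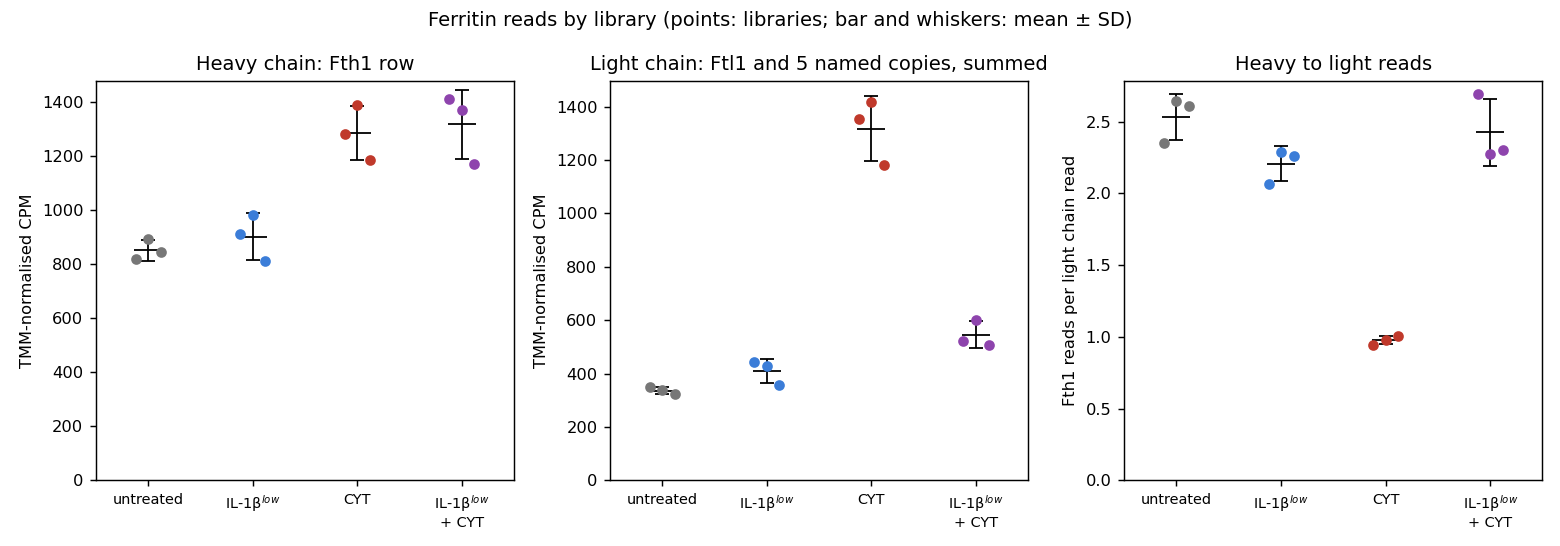
Ferritin in each of the 12 libraries (points), by group, with mean and SD (bar and whiskers) on linear axes: Fth1 CPM, the summed CPM of the 6 light chain rows, and Fth1 reads per light chain read. Fth1 held 1285 CPM in CYT and 1318 CPM in IL-1βlow + CYT cells, while the light chain sum was 1318 CPM in CYT and 545 CPM in IL-1βlow + CYT cells, and the ratio was 0.976 in CYT cells and above 2 in the other groups.

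Lcn2 was almost absent without the challenge. The counts were 1, 0 and 0 in untreated and 4, 3 and 3 in IL-1βlow libraries. They were 1471, 2019 and 2309 in CYT libraries, or 79.9, 118 and 118 CPM. In IL-1βlow + CYT libraries they were 134, 234 and 223, or 8.15, 11.6 and 13.3 CPM. No groups overlapped. Summed over libraries and set against the totals, CYT cells held 9.50 times as many Lcn2 reads as IL-1βlow + CYT cells (95% exact conditional interval 8.73 to 10.4). IL-1βlow + CYT cells held 57.6 times as many as IL-1βlow cells (31.1 to 121). Against the single untreated count the ratios were 5344 in CYT (959 to 211125), 562 in IL-1βlow + CYT (101 to 22253) and 9.77 in IL-1βlow cells (1.39 to 424). These intervals cover counting error only, not the spread between libraries. By edgeR, Lcn2 passed in CYT against untreated (adjusted p = 1.9e-11), IL-1βlow + CYT against IL-1βlow (adjusted p = 2.2e-08) and IL-1βlow + CYT against untreated cells (adjusted p = 7.3e-09). IL-1βlow + CYT against CYT cells gave a log2 fold change of -3.25 (SE 0.19, adjusted p = 2.1e-08). The interaction also passed (adjusted p = 0.00085), with a fitted value that depends on the prior count. IL-1βlow against untreated cells did not pass (adjusted p = 0.3).

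Lipocalin-2 is also a protein of neutrophil granules and of macrophages, so markers of these cells were read beside it. The summed neutrophil markers (S100a8, S100a9, Mpo, Elane) stood at 0 CPM in untreated, 0 to 0.0617 in IL-1βlow, 3.32 to 6.39 in CYT and 0.851 to 2.44 in IL-1βlow + CYT libraries. S100a9 carried most of this, Mpo reached at most 5 counts and S100a8 at most 1 count in a library, and Elane had 0 counts. The 6 macrophage markers summed to 1.07 to 1.72 CPM in untreated, 0.769 to 1.05 in IL-1βlow, 2.16 to 3.42 in CYT and 4.44 to 5.77 in IL-1βlow + CYT libraries. Of these, Adgre1 held a mean of 0.0191 CPM in untreated, 0 in IL-1βlow, 1.35 in CYT and 2.79 CPM in IL-1βlow + CYT libraries, with at most 58 counts in a library. Csf1r reached a mean of 1.43 CPM in IL-1βlow + CYT libraries and 0.166 CPM in CYT libraries. Cd68 stood between 0.585 and 1.08 CPM in the group means. Ptprc, Cd14 and Itgam, which define blood cells and macrophages, had 0 counts in all 12 libraries. The part of such cells in the Lcn2 values was not tested.

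**Figure D4:**
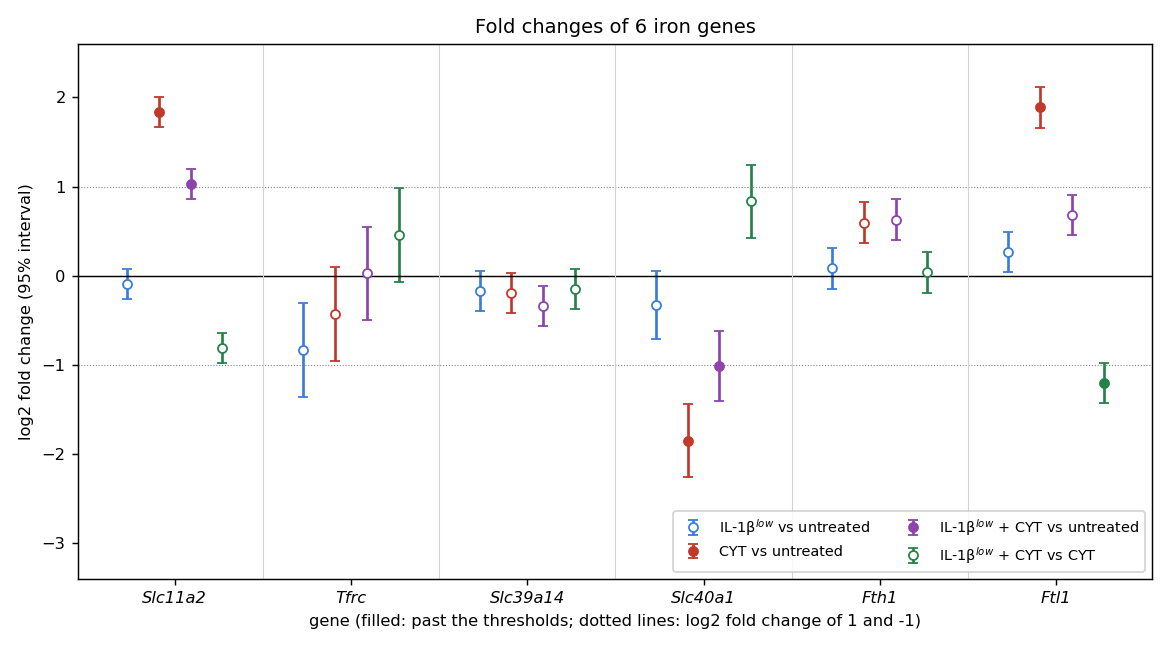
Log2 fold changes with 95% intervals for 6 of the genes in 4 comparisons, with Lcn2 left out because its untreated libraries held 1 count in all. Filled points passed the thresholds and dotted lines mark log2 fold changes of 1 and -1: Slc11a2 (1.84), Ftl1 (1.89) and Slc40a1 (-1.85) passed in CYT cells, and Ftl1 alone of these 6 passed in IL-1βlow + CYT against CYT cells (-1.20).

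Counted together and set beside all genes tested, 0 of the 7 genes passed in IL-1βlow against untreated cells, where 0.433% of all genes did (0.265% higher, 0.168% lower). With edgeR's quasi-likelihood test 62 of all genes passed there and 1982 had an unadjusted p under 0.05, Tfrc, Ftl1 and Lcn2 of the 7 among them, and DESeq2's Wald test passed 138. In CYT against untreated cells 4 of the 7 passed, 3 higher (Slc11a2, Ftl1, Lcn2) and 1 lower (Slc40a1), against 21.6% of all genes (10% higher, 11.6% lower). The challenge in preconditioned cells, IL-1βlow + CYT against IL-1βlow, moved 2 of them past the thresholds, both higher (Slc11a2, Lcn2), against 3.88% (2.92% higher, 0.963% lower). Between IL-1βlow + CYT and CYT cells 2 passed, both lower (Ftl1, Lcn2), against 12.5% (6.54% higher, 5.92% lower). For IL-1βlow + CYT against untreated cells the count was 3, with Slc11a2 and Lcn2 higher and Slc40a1 lower, against 5.99% (3.85% higher, 2.14% lower). The interaction passed for 4, higher for Tfrc and Slc40a1 and lower for Ftl1 and Lcn2, against 10.7% (5.48% higher, 5.2% lower). The median log2 fold change of the 7 genes was -0.09 in IL-1βlow and 0.59 in CYT cells against untreated cells, and -0.15 between IL-1βlow + CYT and CYT cells. Over all genes tested the same medians were 0.00438, -0.0429 and 0.0226. The 7 genes were chosen with earlier results of these data known, so these counts describe them and do not set them apart from other genes.

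Across the 12 libraries, which fall into 4 groups, log2 CPM of Lcn2 and Slc11a2 had a Pearson r of 0.98, Slc11a2 and Ftl1 0.94, and Slc11a2 and Slc40a1 -0.94. Tfrc had an r between -0.14 and 0.14 with each of the other 6. These values mainly repeat the differences between the groups and are given as a description, and a common scaling enters them all. The genes most like each one, among those with a mean log2 CPM above 2, were Pim2 (0.99), Scly (0.99) and Sod2 (0.99) for Slc11a2, and Adam23 (0.98), Sall1 (0.98) and Trps1 (0.98) for Slc40a1. Sod2 encodes the mitochondrial superoxide dismutase and Scly a selenocysteine lyase. For Lcn2 they were Epb41l4b (0.999), Gdpd5 (0.996) and Mapk4 (0.996). For Fth1 they were Carhsp1 (0.99), Ror1 (0.98) and Abat (0.98), and for Tfrc Nup153 (0.94), Pag1 (0.92) and Usp14 (0.91). Slc39a14 was closest to Ltv1 (0.90), Grik3 (0.87) and Fstl4 (0.85), and Ftl1 to its copies LOC100360087 (0.998) and LOC100359668 (0.998) and to LOC120102993 (0.998).

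Other genes of iron transport and its regulation were read from a list of 27, of which 17 were tested. In CYT against untreated cells 5 of the 17 passed (29.4%, beside 21.6% of all genes tested), 4 higher and 1 lower, with a median log2 fold change of 0.54. Slc25a37, mitoferrin-1, which carries iron into mitochondria, went from 8.45 ± 0.961 to 53.5 ± 12.2 CPM (log2 fold change 2.66, SE 0.20, adjusted p = 4.5e-08). Preconditioned challenged cells held 7.94 ± 1.70 CPM of it, lower than CYT cells by -2.75 on the log2 scale (SE 0.20, adjusted p = 1.4e-07). All 3 CYT libraries, from 42.6 to 66.7 CPM, thus stood apart from all 9 others, which held at most 9.45 CPM. Tfr2, the transferrin receptor 2, rose from 0.826 ± 0.105 to 4.82 ± 0.774 CPM with CYT (log2 fold change 2.53, SE 0.28, adjusted p = 3.1e-06). It was also higher in IL-1βlow + CYT than in untreated (1.69, adjusted p = 0.00068) and IL-1βlow cells (1.72, adjusted p = 0.00092), at levels of a few CPM. The last call was lost when only these 2 groups were fitted (adjusted p = 0.011). With at least 10 counts required in every library Tfr2 was not tested, which left 0 genes of the list passing in IL-1βlow + CYT against IL-1βlow cells. Untreated libraries held at most 0.917 CPM of Tfr2 and IL-1βlow libraries 0.555 to 1.17 CPM. Tfr2, like Lcn2, thus reached the level needed for testing only through the challenged libraries, and the shares given here include it. Steap3, the ferrireductase of endosomes, rose by 1.49 with CYT (SE 0.24, adjusted p = 7.8e-05) and was lower by -1.94 in IL-1βlow + CYT than in CYT cells (SE 0.24, adjusted p = 1.7e-05). Mcoln1, a channel that releases iron from endosomes and lysosomes, rose by 1.19 with CYT (SE 0.10, adjusted p = 1.6e-07). Steap2, another ferrireductase, fell by 1.65 with CYT (SE 0.17, adjusted p = 1.6e-06) and by 1.21 in IL-1βlow + CYT against untreated cells (SE 0.17, adjusted p = 9.4e-05).

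Between IL-1βlow + CYT and CYT cells 4 of these 17 genes passed (23.5%, beside 12.5% of all genes tested), all lower, with a median log2 fold change of -0.50. Beside Slc25a37 and Steap3 they were Epas1, which encodes the hypoxia-inducible factor HIF-2α (-1.45, SE 0.13, adjusted p = 1.1e-06), and Lrp2, which encodes megalin, an endocytic receptor that takes up lipocalin-2 (-1.20, SE 0.20, adjusted p = 0.00017). The interaction passed for 3 of the 17 (17.6%, beside 10.7% of all genes tested), all lower. These were Slc25a37 (-2.35, adjusted p = 3.8e-05), Steap3 (-1.78, adjusted p = 0.0015) and Lrp2 (-1.04, adjusted p = 0.01 after rounding). The Lrp2 interaction did not pass without untreated replicate 1 or 2, any IL-1βlow library, CYT replicate 2 or 3, or IL-1βlow + CYT replicate 1 or 2 (-0.93 to -1.10, adjusted p of 0.013 to 0.029), nor with at least 10 counts required in every library. In IL-1βlow against untreated cells 0 of the 17 passed, beside 0.433% of all genes tested. The count for CYT against untreated cells was 9 with no filter on low counts and 8 without untreated replicate 3, and that for the interaction was 5 and 6, respectively. Over all genes, 3530 of 24221 and 3029 of 14280 passed for CYT against untreated cells in these fits, and 1853 and 1425 for the interaction. With no filter more genes are tested, so these counts are not to be set against the 17 above.

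Of 23 genes of haem synthesis, transport and breakdown 19 were tested, and 3 passed in CYT against untreated cells (15.8%, beside 21.6% of all genes tested), all higher, with a median of 0.08. Hmox1, which frees iron from haem, rose from 22.4 ± 6.49 to 209 ± 35.2 CPM, and it was lower in IL-1βlow + CYT than in CYT cells, at 40.6 ± 3.52 CPM (log2 fold change -2.36, SE 0.21, adjusted p = 6.9e-07). Alas1, the first enzyme of haem synthesis, rose by 1.21 with CYT (SE 0.10, adjusted p = 2.1e-07). Hpx, which encodes the haem carrier hemopexin, rose by 1.53 with CYT (SE 0.32, adjusted p = 0.00077) and by 2.28 in IL-1βlow + CYT against untreated cells (SE 0.31, adjusted p = 6.7e-05), and was also higher in IL-1βlow + CYT than in IL-1βlow cells (2.38, adjusted p = 7.4e-05). Its levels were low, with 0.794 ± 0.328 CPM in untreated cells, 2.30 ± 0.571 CPM after CYT and 3.87 ± 0.447 CPM in IL-1βlow + CYT cells. Untreated libraries held 0.516 to 1.16 CPM and IL-1βlow libraries at most 0.859 CPM. Hpx too thus reached the level needed for testing only through the challenged libraries. With at least 10 counts required in every library Hpx was not tested, which left 0 haem genes passing in IL-1βlow + CYT against untreated or against IL-1βlow cells. The interaction passed for Hmox1 alone of the 19 (5.26%, beside 10.7% of all genes tested), at -2.55 (SE 0.29, adjusted p = 2.4e-05). Without CYT replicate 1 a count of 2 rather than 1 of the haem genes passed both here and in IL-1βlow + CYT against CYT cells, and without untreated replicate 1 a count of 2 passed in IL-1βlow + CYT against untreated cells. Over all genes tested, 1707, 1939 and 792 passed in these fits, respectively.

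Iron-sulphur clusters are built in mitochondria and handed on to enzymes, and all 22 genes listed for this were tested. In CYT against untreated cells 4 passed (18.2%, beside 21.6% of all genes tested), 3 higher and 1 lower, with a median of 0.26. Nfu1, a late carrier of clusters, rose from 28.0 ± 2.03 to 75.2 ± 4.80 CPM (log2 fold change 1.43, SE 0.090, adjusted p = 7.9e-09). Fdx2, the ferredoxin that supplies electrons, rose by 1.18 (SE 0.15, adjusted p = 1e-05), and Hspa9, the mitochondrial chaperone mortalin, by 1.17 (SE 0.13, adjusted p = 3.4e-06). Nfs1, the desulphurase that supplies the sulphur, fell from 115 ± 5.54 to 47.9 ± 7.70 CPM (log2 fold change -1.26, SE 0.12, adjusted p = 7.1e-07). In IL-1βlow + CYT against CYT cells 2 passed (9.09%, beside 12.5% of all genes tested), Hspa9 (-1.14, adjusted p = 8.6e-06) and Fdx2 (-1.04, adjusted p = 5.4e-05), the latter not without CYT replicate 2 (-0.92) or IL-1βlow + CYT replicate 3 (-0.96). The interaction passed for 3 of the 22 (13.6%, beside 10.7% of all genes tested). These were Fdx2 (-1.20, adjusted p = 0.00068), Nfu1 (-1.08, adjusted p = 2.8e-05) and Hspa9 (-1.07, adjusted p = 6e-04). That of Hspa9 fell just short of the fold minimum without IL-1βlow replicate 3, CYT replicate 3 or IL-1βlow + CYT replicate 1. None of the 22 passed in IL-1βlow + CYT against untreated or against IL-1βlow cells, where 5.99% and 3.88% of all genes tested did. In GRCr8 Mcoln1, Hmox1 and Hpx overlap 1 long noncoding gene each, Hspa9 overlaps 2 small nucleolar RNA genes and Alas1 overlaps the protein-coding gene Rpl29. Reads shared with these genes cannot be told apart, and the size of that share was not tested.

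**Figure D5:**
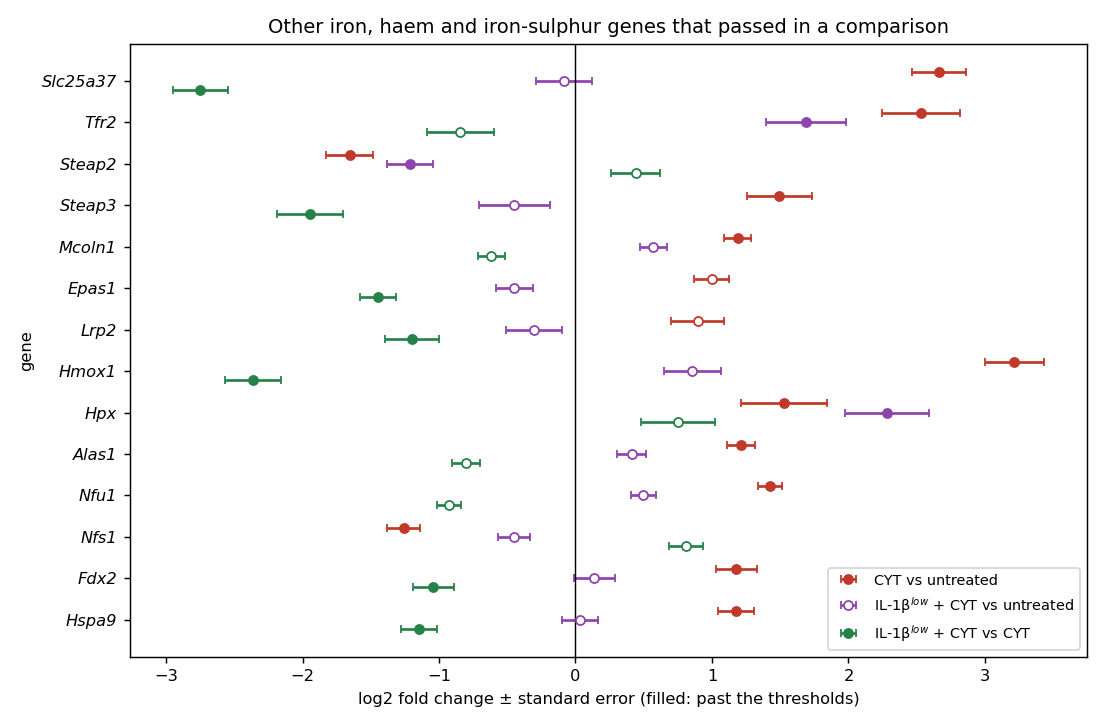
Log2 fold changes with standard errors of the 14 genes of iron transport, haem and iron-sulphur clusters that passed in at least 1 comparison, with filled points past the thresholds. Slc25a37 rose by 2.66 in CYT against untreated cells and was lower by -2.75 in IL-1βlow + CYT against CYT cells, and Nfs1 and Steap2 fell with CYT.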

How the data were processed

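PolyA RNA of INS-1E cells was sequenced in 4 groups of 3 libraries. Per the study's methods and the labels, the authors used rfastp for trimming, Rsubread for alignment (mRatBN7.2) and featureCounts to make gene counts; the deposited table holds these raw counts, not normalized, one column per library, and 0 columns were left unused. Strand setting and treatment of reads with several positions are not given in the sources used here. Libraries of a group differed by a chi-square of 6.67 to 25.3 for each degree of freedom, above sampling noise, and each was counted once. The labels call them biological replicates.

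Genes over 1 CPM in 2 or more libraries were fitted together over all 12 libraries (edgeR 4.0.16 quasi-likelihood test, TMM, no block, R 4.3.3), with a common biological coefficient of variation of 0.123. DESeq2 1.42.0 served as an alternative, as did RLE size factors, exactTest, other filters, the 2 groups alone, a replicate block, removal of Rn45s, summed light chain rows and leaving out each library. Ratios were tested with scipy 1.17.1. The fit was tested on simulated counts. Members and gene lists were chosen with earlier results of these data known. Named were all 7 members, the list genes that passed (up to 6 per list and comparison) and the 3 genes most correlated with each member. RefSeq gene models and promoters are those of GRCr8, not the build of the counts, so they serve for names, overlaps and sequence only. PCR copies of a molecule could not be recognised, so reads are not independent molecules.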

Additional observations from a re-analysis of the deposited data

Results flagged for a closer look

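The response to CYT differed between preconditioned and other cells, by the interaction term of the fit, for 4 of the 7 iron genes. Of all genes tested 10.7% passed there (5.48% higher, 5.2% lower), and Lcn2 was tested only through the challenged libraries. The response was higher after preconditioning for Tfrc, by 1.29 on the log2 scale, and for Slc40a1, by 1.17. It was lower for Ftl1, at -1.47, and for Lcn2, at -6.15, where the size depends on the prior count because untreated libraries held 1 Lcn2 count in all. The Tfrc difference was past the threshold without IL-1βlow replicate 3, CYT replicate 3 or IL-1βlow + CYT replicate 1, and not without any other single library. The Slc40a1 difference was 0.98 and did not pass without IL-1βlow replicate 2, and those of Ftl1 and Lcn2 passed under every alternative in which they could be fitted.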

How the results depend on the processing

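Among log2 fold changes of the 7 genes refitted under an alternative, 795 kept their direction and their side of the thresholds, 14 no longer passed, 5 newly passed and 17 changed sign, all 17 in differences near 0 that passed neither way. These were Slc39a14 in the interaction (-0.0073 with RLE size factors, -0.0073 with DESeq2, -0.024 with no filter, -0.054 to 0.094 on leaving out each library), Fth1 in the interaction (-0.13 to 0.031), Fth1 in IL-1βlow + CYT against CYT cells (-0.047 to 0.11) and Tfrc in IL-1βlow + CYT against untreated cells (-0.21 to 0.21). With no filter on low counts, 1 of the 7 genes, Tfrc (-0.82), passed in IL-1βlow against untreated cells. With at least 10 counts in every library Lcn2 was not tested, which left 1 gene in IL-1βlow + CYT against IL-1βlow and 1 in IL-1βlow + CYT against CYT cells. With a cutoff of 0.05 on the adjusted p and no minimum on fold change, 6, 4 and 6 genes passed in IL-1βlow + CYT against IL-1βlow, CYT and untreated cells. The share of all genes at that cutoff is not given here. Of all 14324 genes tested, 3381, 8120 and 4866 had an unadjusted p under 0.05 in these comparisons. These counts thus do not set the 7 genes apart from other genes. Leaving out each library gave 0 to 1 genes for IL-1βlow against untreated, 1 to 3 for IL-1βlow + CYT against untreated, and 2 to 4 for the interaction. Over all genes tested, 16 to 87, 748 to 997 and 1276 to 1707 passed in these fits, respectively.

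The replicate numbers are not stated to mark a shared culture, so same-numbered libraries were not treated as pairs. Deviations of same-numbered libraries from their group means had a mean correlation of 0.191 (-0.188 to 0.520). Those of differently numbered libraries had a mean of -0.0943 (-0.483 to 0.217). Deviations within a group cancel, so this second mean largely follows from the first and is no separate comparison. Same-numbered libraries were thus more alike on average, and whether they shared a culture was not tested. With the replicate number as a block, Tfrc also passed in IL-1βlow against untreated cells (-0.90, adjusted p = 0.0023), which made 1 gene there, its difference in IL-1βlow + CYT against untreated cells was -0.024, and 141 rather than 62 of all genes passed; the counts of the 7 genes were the same elsewhere. Of all libraries, 9 of 12 correlated best with one of their own number. DESeq2 passed 138 and exactTest 137 genes in that comparison. exactTest and the fits of 2 groups give no interaction. Depth limits Lcn2 without the challenge, at 0 to 4 counts per library.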
